A study of Mus musculus with 24 samples.

Results

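The HoxD cluster of the mouse holds Evx2 and the genes Hoxd13, Hoxd12, Hoxd11, Hoxd10, Hoxd9, Hoxd8, Hoxd4, Hoxd3 and Hoxd1 on chromosome 2. The peaks of 7 histone mark lists were read in a window of 139999 bp around these 10 genes, chr2:74640001-74779999 (mm10), and each peak was given to the member whose annotated transcript start lay nearest to the peak's centre. The window held 245 peaks. They were 33 of 49679 peaks of H3K27ac in WT limb buds, 25 of 43916 of H3K27ac in Shh-/- limb buds, 61 of 36585 of H3K4me2 in WT, 59 of 38468 of H3K4me2 in Shh-/-, 45 of 20830 of H3K27me3 in Shh-/-, and 11 of 87779 and 11 of 90989 of H3K27ac in NIH3T3 cells with purmorphamine and with DMSO.

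The lists came from chromatin immunoprecipitation and sequencing (ChIP-seq) of 24 libraries in 14 groups, of which 14 were immunoprecipitations and 10 were inputs. Limb samples were forelimb buds of E10.5 mouse embryos with 32 to 35 somites, pooled from several embryos, and 400000 cells entered each immunoprecipitation. The Shh-/- embryos carried a null allele of Sonic hedgehog on a Swiss Webster background, and by the study's methods the WT group mixed WT and heterozygous littermates of matched somite number. NIH3T3 are mouse fibroblasts in culture with an intact Hedgehog (HH) pathway, and 1000000 cells were used per immunoprecipitation after 48 h with 400 nM purmorphamine, an agonist of the HH receptor component Smoothened, or with the solvent DMSO. H3K27me3 in WT limb buds was not analysed here, so gain or loss of this mark cannot be stated. Peak lists hold no transcript levels, and the genotype labels were not checked against Shh itself.

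The authors had called 1 list per condition with its replicates pooled. No list of a single replicate was used, so no comparison here has a replicate check or a p-value, and intervals on shares are 95% Wilson intervals that cover counting error only. Neighbouring peaks of one gene are not independent, which those intervals do not include. The lists do not give the number of reads per library, for which the study states only a minimum, so a region with no peak is one with no signal above the authors' limit at the depth sequenced. Promoter H3K27ac went with the labelled cell types in part. In both limb lists 7 of 7 genes typical of limb mesenchyme had it, and 0 of 4 of ectoderm and 0 of 4 of blood. In both NIH3T3 lists 5 of 5 fibroblast genes had it. Both limb lists also had it at 2 of 5 fibroblast genes (Col1a2 and Fn1). Both NIH3T3 lists had it at 3 of 7 limb mesenchyme genes, and the purmorphamine list at 1 of 4 ectoderm genes (Trp63).

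Hox genes encode homeodomain transcription factors that give cells their position along an axis, and the order of the genes in a cluster follows the order of the regions in which they act. In the limb bud the Hoxd8 to Hoxd11 side of the cluster is used early and in the proximal limb, while Hoxd10 to Hoxd13, the posterior or 5′ genes, are used in the posterior and distal bud that forms the digits. Posterior mesenchyme secretes SHH, and HH signaling removes the GLI repressors that otherwise keep these genes off in the anterior bud. H3K27ac marks active promoters and enhancers, H3K4me2 marks active and poised ones, and H3K27me3 is laid down by Polycomb complexes over silent developmental genes.

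To show what kind of promoters these marks covered, 5 upstream stretches of 250 bases were taken from the RefSeq annotation of GRCm38.p6 (the assembly that mm10 names), each read on the plus strand, which is the coding strand of these genes, with every CpG in capitals. They are shown because they stand for some of the states met along the cluster. Not among them are H3K27me3 alone, as before Evx2, and H3K27me3 with acetylation in both genotypes, as before Hoxd9. The Hoxd13 stretch at chr2:74667975-74668224 lay under H3K27me3 with H3K4me2 at its edge, and the Hoxd12 stretch at chr2:74674763-74675012 lay under H3K27me3 with WT acetylation at its edge. The Hoxd11 stretch (chr2:74679308-74679557) came before the upstream start of a noncoding RefSeq transcript. But for its last 8 bases, it lay within the window's best-ranked acetylation peak found in WT and not in Shh-/-. All 250 of its bases lay under Shh-/- H3K27me3, and 142 under WT H3K4me2. The Hoxd8 stretch at chr2:74704365-74704614 was acetylated in all 4 acetylation lists, and the Hoxd1 stretch at chr2:74762730-74762979 carried H3K4me2 and no acetylation.
Hoxd13: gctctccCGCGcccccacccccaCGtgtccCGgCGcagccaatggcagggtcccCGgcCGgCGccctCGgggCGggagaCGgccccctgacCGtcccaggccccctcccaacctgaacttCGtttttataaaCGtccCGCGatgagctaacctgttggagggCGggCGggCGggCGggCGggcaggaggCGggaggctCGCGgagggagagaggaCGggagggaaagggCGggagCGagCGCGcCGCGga
Hoxd12: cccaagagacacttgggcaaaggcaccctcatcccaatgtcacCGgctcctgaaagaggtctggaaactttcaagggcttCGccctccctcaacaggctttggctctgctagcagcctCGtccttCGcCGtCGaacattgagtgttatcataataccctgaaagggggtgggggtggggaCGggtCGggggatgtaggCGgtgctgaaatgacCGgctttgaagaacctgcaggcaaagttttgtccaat
Hoxd11 (upstream start): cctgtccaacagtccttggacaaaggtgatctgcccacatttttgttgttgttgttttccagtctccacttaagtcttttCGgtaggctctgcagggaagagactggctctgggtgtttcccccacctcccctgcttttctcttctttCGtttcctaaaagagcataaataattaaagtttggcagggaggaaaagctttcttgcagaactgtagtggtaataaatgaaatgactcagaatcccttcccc
Hoxd8: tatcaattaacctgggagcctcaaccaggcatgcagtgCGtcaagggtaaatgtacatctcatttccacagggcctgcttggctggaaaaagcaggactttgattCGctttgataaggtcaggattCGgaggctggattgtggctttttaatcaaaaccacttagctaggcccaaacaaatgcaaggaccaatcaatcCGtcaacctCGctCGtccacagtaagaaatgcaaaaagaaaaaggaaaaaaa
Hoxd1: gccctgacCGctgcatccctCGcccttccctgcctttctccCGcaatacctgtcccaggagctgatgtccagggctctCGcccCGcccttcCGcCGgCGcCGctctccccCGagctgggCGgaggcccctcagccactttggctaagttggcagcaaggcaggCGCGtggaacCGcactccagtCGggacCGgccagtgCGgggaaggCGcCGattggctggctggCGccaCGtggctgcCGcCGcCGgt

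The number of CpG before the members' starts varied widely, and starts with many CpG were found both with and without acetylation. All 10 members matched RefSeq, with 11 starts. Hoxd13 held 31 CpG in 250 bases, as many as or more than 95.4% of 32851 promoters, whose median was 6. Hoxd1 held 24, and the main start of Hoxd11 and the start of Hoxd10 held 20 each. Evx2 held 14, Hoxd9 13, Hoxd3 12, Hoxd12 10, Hoxd8 6, Hoxd4 3 and the upstream Hoxd11 start 2. The GLI consensus GACCACCCA, searched on both strands (TGGGTGGTC on the other) as an exact match, was found 0 times in the whole window, and stretches of the same length elsewhere held a median of 1, with none in 42.8% of 19458 of them. By comparison 0.225% of all promoters, 0.401% of WT H3K27ac peaks and 0.266% of Shh-/- H3K27ac peaks held it, so most regions carry no such match.

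Acetylation was asked first, since it marks the active part of the cluster. In WT forelimb buds acetylation began at the first exon of Hoxd13 and ran through Hoxd12, Hoxd11, Hoxd10, Hoxd9 and Hoxd8 to the start of Hoxd3. In Shh-/- it began 13950 bp later, 123 bp before the main start of Hoxd11, and no Shh-/- peak lay at Evx2, Hoxd13 or Hoxd12. From Hoxd10 to Hoxd8 both genotypes were acetylated over nearly the same bases. WT peaks covered 37850 bases of the window (27.04%) and Shh-/- peaks 29600 (21.1%). In a whole bud, fewer cells with acetylation and less acetylation per cell cannot be told apart.

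**Figure D1:**
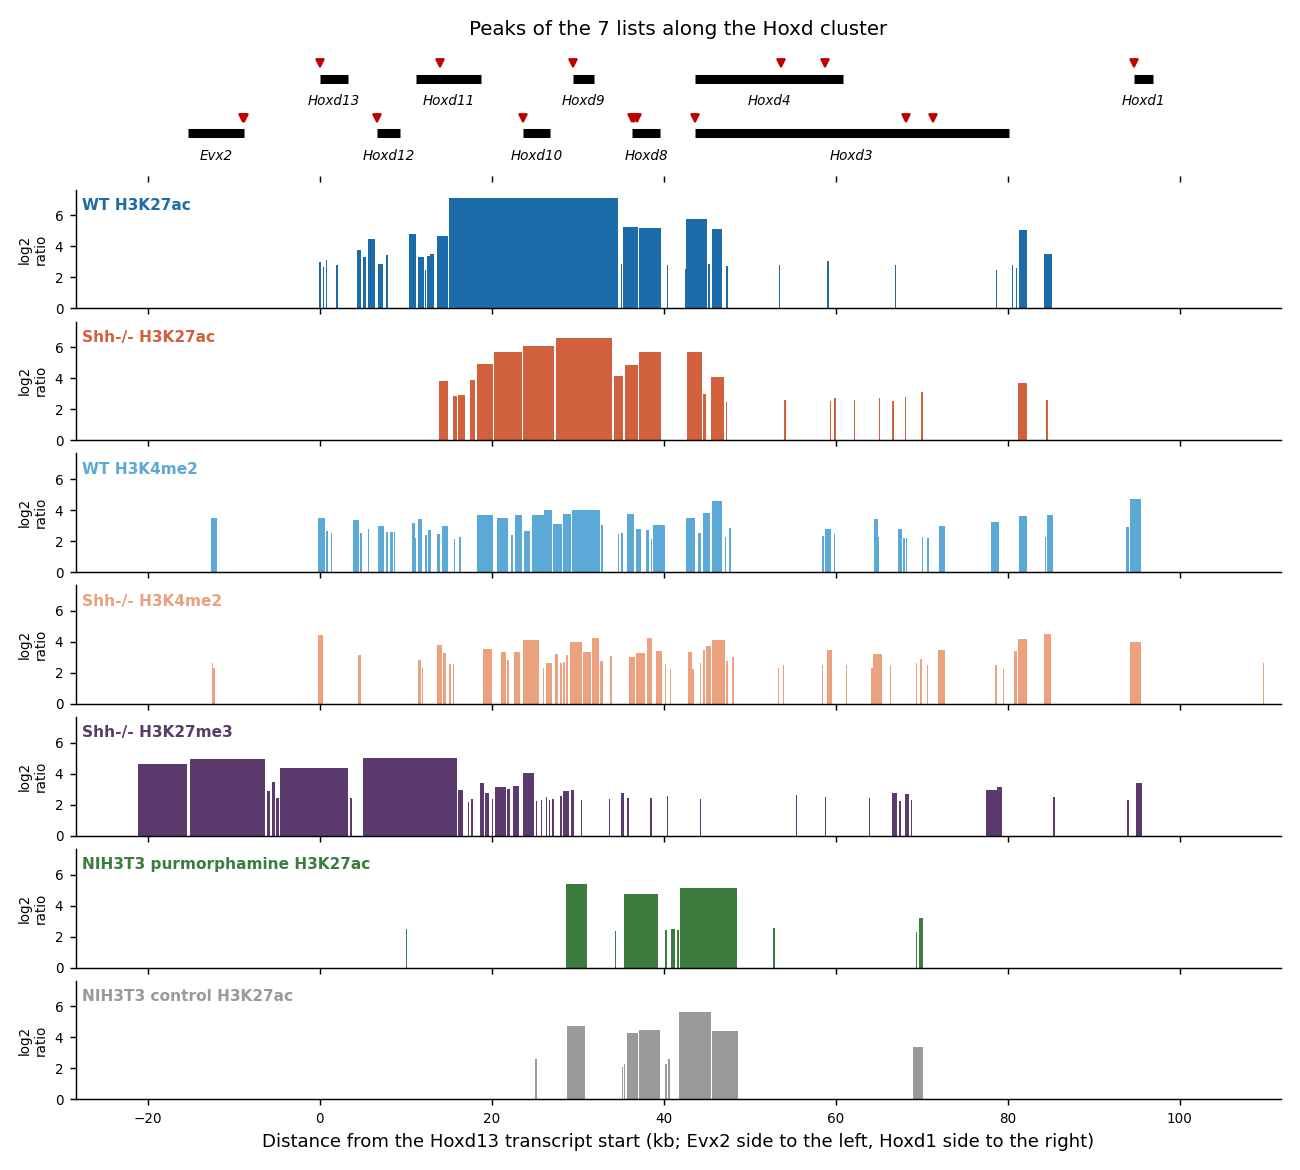
Peaks of the 7 lists over the HoxD window, with the distance from the Hoxd13 transcript start in kb on the x axis and the largest log2 ratio of ChIP to input in each peak as bar height (bars as wide as the peaks, one pooled list per row, transcript starts as triangles). WT acetylation starts at Hoxd13 and Shh-/- acetylation starts 13.95 kb to its right, while the widest H3K27me3 peaks lie to the left of Hoxd10.

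Of the 33 WT acetylation peaks, 23 (69.7%, interval 52.7 to 82.6) had no overlapping peak in Shh-/-, beside 48.5% over the whole WT list. Of the 25 Shh-/- peaks, 8 (32.0%, 17.2 to 51.6) had none in WT, beside 38.4% over that list. The same WT share was 36.4% in the HoxA window (16 of 44), 21.9% in HoxB (7 of 32) and 16.7% in HoxC (4 of 24), each window reaching 13 kb past its outermost genes. By bases the picture in the window was smaller: 10400 of 37850 WT acetylated bases (27.5%) were without Shh-/- acetylation, beside 40.3% over the whole list, because the shared peaks were wide. Most unshared acetylation was therefore in short peaks.

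Most of the WT-only peaks lay at the posterior genes, and none of the Shh-/- only peaks did. Of the 23 WT-only peaks, 14 ended before the first Shh-/- acetylated base, spanned Hoxd13 to Hoxd11 and were 100 to 850 bp wide, with log2 ratios of 2.46 to 4.81. The other 9 lay between Hoxd8 and Hoxd1, were 100 to 250 bp wide and had log2 ratios of 2.47 to 3.04. The 8 Shh-/- only peaks all lay between the first Hoxd4 start and the last Hoxd3 start, at chr2:74722300-74738449, and were also narrow (100 to 250 bp) and weak (2.53 to 3.08).

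**Figure D2:**
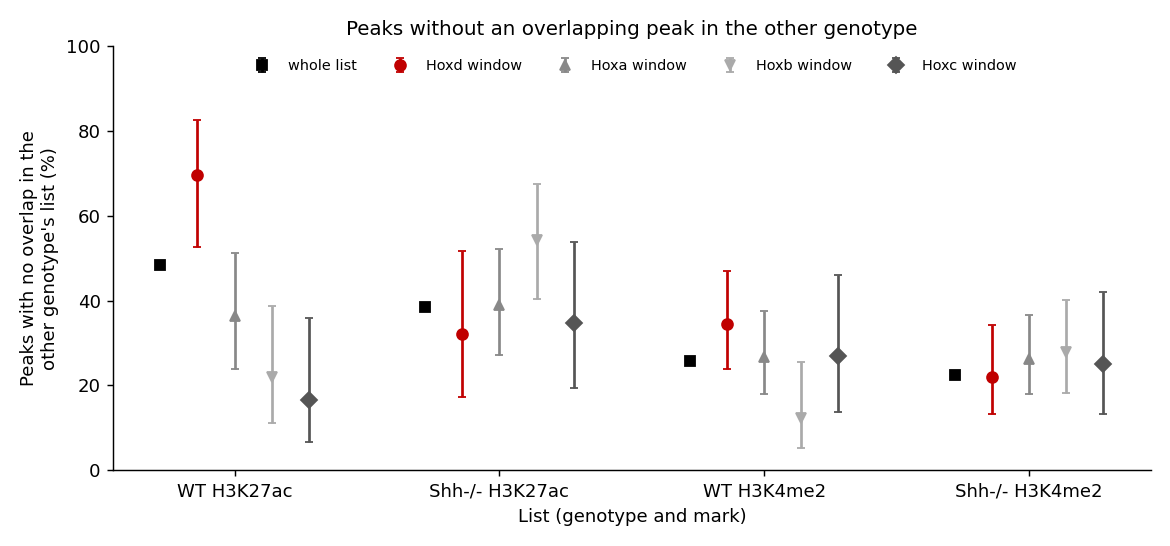
Percent of peaks with no overlapping peak in the other genotype (y axis) for the 4 limb lists of H3K27ac and H3K4me2 (x axis), over the whole list and in the 4 Hox windows, with 95% Wilson intervals for counting error as bars. The WT H3K27ac share in the HoxD window, 69.7%, is above the 48.5% of its whole list and above the 3 other Hox windows, and the Shh-/- H3K4me2 share of 22.0% is beside 22.5%. By bases, not drawn, the WT H3K27ac share in the HoxD window is 27.5%, below the 40.3% of its whole list.

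Marker genes of other cells did not all match between the genotypes. A WT acetylation peak lay at the promoter of 1 of 3 endothelial genes (Cdh5), 0 of 3 muscle precursor genes and 0 of 2 hindlimb genes. In Shh-/- these counts were 0 of 3, 2 of 3 (Pax3 and Lbx1) and 1 of 2 (Tbx4). Their part in the differences at the cluster was not tested.

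Evx2, a homeobox gene at the 5′ end of the cluster that is read on the opposite strand, had 0 acetylation peaks in either limb list. It had H3K4me2 within the gene only, at an exon: 1 WT peak of 700 bp (log2 ratio 3.50, chr2:74655650-74656349) and 2 Shh-/- peaks of 150 bp each (2.63 and 2.34) inside the same bases. In Shh-/-, the genotype read for this mark, H3K27me3 covered 65.7% of the 23933 bp nearest to its starts. The short H3K4me2 site was thus found in both genotypes.

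Hoxd13, the last gene of the series and the one most tied to digit formation, had 4 acetylation peaks in WT and 0 in Shh-/-. The WT peaks were short and weak. They were 150 to 250 bp wide, had log2 ratios of 2.67 to 3.14, and ranked between 23535 and 40361 of 49679. The first of them, chr2:74668250-74668499, lay in the first exon and over coding sequence, and in Shh-/- all 250 of its bases lay under both H3K4me2 and H3K27me3. H3K4me2 at the start of the gene was present in both genotypes: the WT peak of 750 bp had a log2 ratio of 3.49 (rank 11854) and the Shh-/- peak of 600 bp one of 4.48 (rank 1612). The ratio was therefore higher in the genotype with no acetylation peak, with no replicate check on that difference. H3K27me3 covered 99.2% of the 7728 bp nearest to Hoxd13.

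Hoxd12, the next gene, had 5 WT acetylation peaks and 0 in Shh-/-. They covered 37.1% of its 7007 nearest bases, from upstream of the start into the gene, with log2 ratios of 2.87 to 4.46. The strongest was upstream of the gene at chr2:74673950-74674799 (850 bp, log2 ratio 4.46, rank 6057), intergenic by annotation. Called H3K4me2 differed in the same direction. In WT 7 peaks, with log2 ratios of 2.49 to 3.38, covered 35.0% of these bases. In Shh-/- 1 peak of 400 bp (log2 ratio 3.17) covered 5.71%. That peak lay upstream. The 4 WT peaks over Hoxd12 exons had no Shh-/- partner and were weak (2.56 to 2.94), with no replicate check on this difference. H3K27me3 covered 78.1% of the bases.

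Hoxd11, which acts in the forearm and in the digits, was the gene at which acetylation of the 2 genotypes met. In WT 85.4% of its 8455 nearest bases were acetylated, and in Shh-/- 39.9%. At the main start the WT peak of 1250 bp (chr2:74682000-74683249) had a log2 ratio of 4.66 and rank 4892, and the Shh-/- peak of 1000 bp (chr2:74682200-74683199) had 3.82 and rank 8989. The 5 other WT peaks lay upstream and had no Shh-/- partner. Among them was the best-ranked unshared peak of the window, chr2:74678750-74679549, with 800 bp, a log2 ratio of 4.81 and rank 4143. It ended just before the start of the noncoding Hoxd11 transcript whose upstream bases are printed above. It was the only window peak among the 41 unshared peaks in the best 10% of the WT list (4967 peaks), where it was the 28th by rank. H3K4me2 covered 39.9% of these bases in WT and 20.1% in Shh-/-, and H3K27me3 79.3%.

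**Figure D3:**
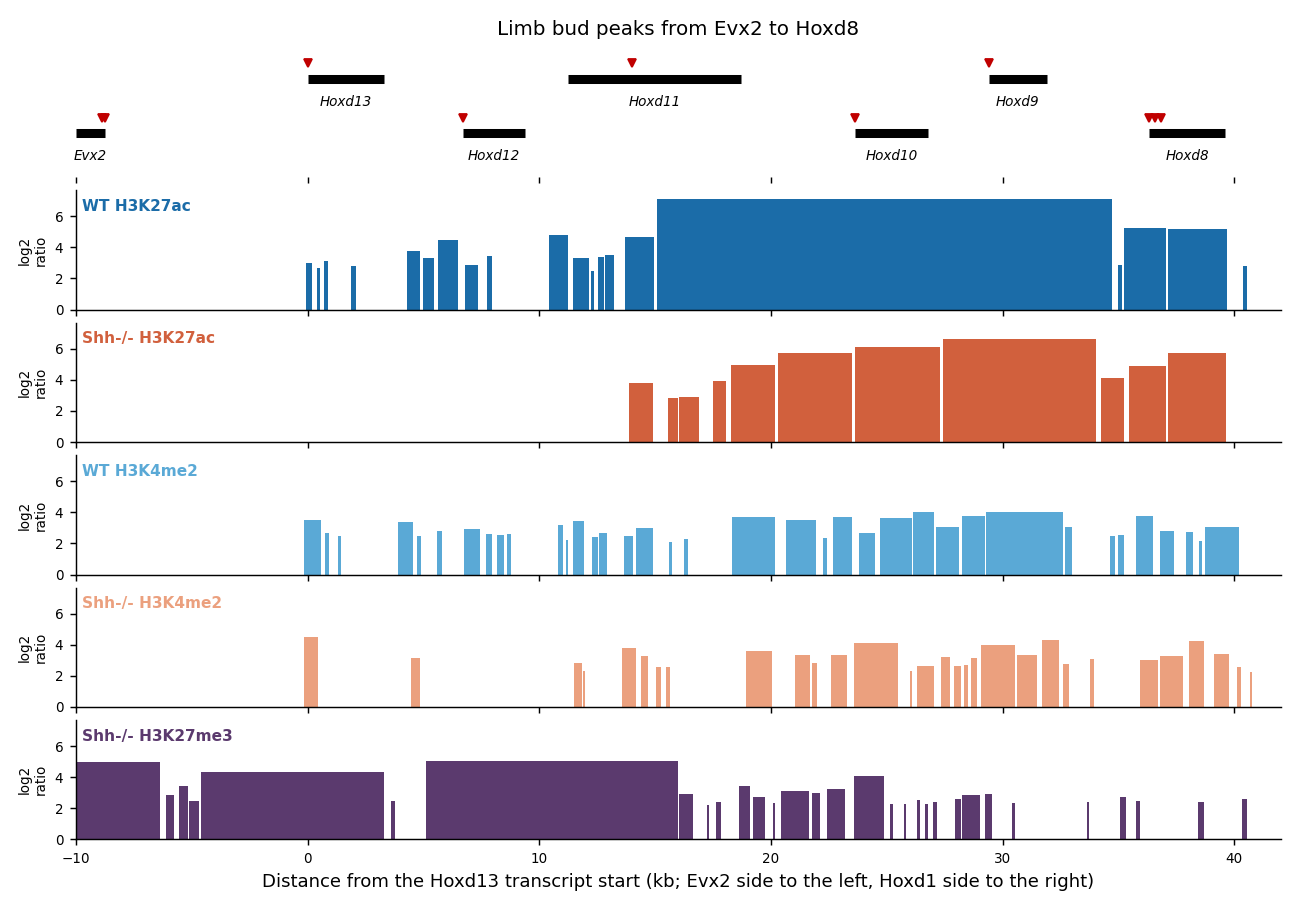
The 5 limb bud lists from the first part of Evx2 to Hoxd8, drawn as log2 ratio of ChIP to input (y axis) against distance from the Hoxd13 start in kb (x axis). Genes are black bars and transcript starts triangles, with 1 bar per peak of the pooled list. WT acetylation at Hoxd13, Hoxd12 and upstream of Hoxd11 has no bar below it in the Shh-/- acetylation row. The 3 wide H3K27me3 peaks drawn cover most of that stretch and the drawn part of Evx2.

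The stretch from the first WT to the first Shh-/- acetylated base, chr2:74668250-74682199, sums up these 3 genes. WT acetylation covered 5850 of its 13950 bases (41.9%). Shh-/- acetylation covered 0, which follows from how the stretch was chosen. H3K4me2 covered 5150 bases in 16 WT peaks and 1650 in 5 Shh-/- peaks. All 11 unshared H3K4me2 peaks that ended before its last base were WT peaks, and no Shh-/- only H3K4me2 peak lay in it. These 11 were 100 to 700 bp wide with log2 ratios of 2.19 to 3.18 (median 2.61), and 1 had an FDR of 0.05 or more. The study's own test of H3K4me2 between the genotypes found nearly all peaks of the genome without a change. Over the whole lists 25.7% of WT and 22.5% of Shh-/- H3K4me2 peaks were unshared. H3K27me3 of Shh-/- covered 12350 bases (88.5%). Beyond this stretch H3K4me2 of the 2 genotypes was closer, at 29050 WT and 25400 Shh-/- bases.

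Hoxd10, Hoxd9 and Hoxd8 formed the acetylated core in both genotypes. In WT 1 peak of 19650 bp, chr2:74683400-74703049, ran from within Hoxd11 past the end of Hoxd9. It had a log2 ratio of 7.09 and rank 48 and was the second-widest peak of the whole WT list. In Shh-/- the same bases held 8 peaks, which covered 17700 of them (90.1%). The best of these was 6600 bp wide at Hoxd9 (chr2:74695750-74702349, log2 ratio 6.59, rank 74), followed by 3650 bp over Hoxd10 (6.10, rank 330) and 3200 bp before it (5.71, rank 712). Hoxd10 and Hoxd9 thus lay under a single peak in WT and under adjoining peaks in Shh-/-, where the log2 ratio went from 2.82 in Hoxd11 to 6.59 at Hoxd9. As percent of the nearest bases, WT and Shh-/- acetylation covered 100% and 96.8% for Hoxd10, 100% and 97.6% for Hoxd9, and 86.6% and 85.2% for Hoxd8.

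At Hoxd8 itself 2 strong peaks stood side by side in each genotype. Over the start they had log2 ratios of 5.26 in WT (rank 2407) and 4.86 in Shh-/- (rank 2758), and over the rest of the gene 5.17 (rank 2698) and 5.70 (rank 739). The order of the genotypes was therefore opposite at these neighbouring peaks. H3K4me2 was widest over this core. It covered 79.9% of the Hoxd10 bases in WT and 63.3% in Shh-/-, 94.5% and 77.9% for Hoxd9, and 51.3% and 45.0% for Hoxd8. The WT peak over Hoxd9 (3300 bp, log2 ratio 3.99, rank 4907) faced 3 Shh-/- peaks, of which that at chr2:74700000-74700749 had 4.28 and rank 2720.

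The anterior genes had strong acetylation at few places, which were the Hoxd3 start, Hoxd3os1 and Haglr. Hoxd3, whose distal start lies before the starts of Hoxd4 in the genome, had a strong peak over that start in both genotypes, of 2350 bp in WT (log2 ratio 5.78, rank 1171) and 1700 bp in Shh-/- (5.71, rank 719). In Hoxd3os1, antisense to Hoxd3, the WT peak of 1100 bp at chr2:74713950-74715049 had a log2 ratio of 5.12 (rank 2898) and the Shh-/- peak of 1450 bp one of 4.05 (rank 6944). Over all bases nearest to Hoxd3 the cover was 19.9% and 19.2%. An exon of the antisense RNA Haglr, at chr2:74749550-74750499, was acetylated with a log2 ratio of 5.06 in WT (rank 3115) and 3.70 in Shh-/- (rank 10128), while its H3K4me2 was 3.61 and 4.16. Peaks lying where 2 transcripts overlap cannot be given to one of them.

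Hoxd4 had only short peaks, 2 in WT and 4 in Shh-/-, with none shared, and cover of 2.36% and 4.72%. The division between Hoxd4 and Hoxd3 depends on the start used, since their annotated 5′ ends are 2 bp apart. With each gene's 5′ end as its start, WT acetylation was 4350 bases for Hoxd4 and 250 for Hoxd3, and Shh-/- acetylation 3150 and 1700, where by transcript starts it was 350 and 5550 in WT and 700 and 5350 in Shh-/-. Hoxd1, at the 3′ end, had no acetylation at its start in either genotype. The single acetylation peak nearest to it lay about 10 kb upstream in an exon of the noncoding gene Gm14424, with a log2 ratio of 3.53 in WT (rank 15593) and 2.57 in Shh-/- (rank 36586). The Hoxd1 start instead held the best-ranked H3K4me2 peak of the WT window (1250 bp, log2 ratio 4.71, rank 629), which was 3.96 in Shh-/- (1300 bp, rank 5699). In Shh-/- the best-ranked H3K4me2 peak was that at Gm14424 (chr2:74752500-74753349, 4.51, rank 1433), and the WT peak at chr2:74713900-74715049 in Hoxd3os1 was the other leading one (4.61, rank 894).

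**Figure D4:**
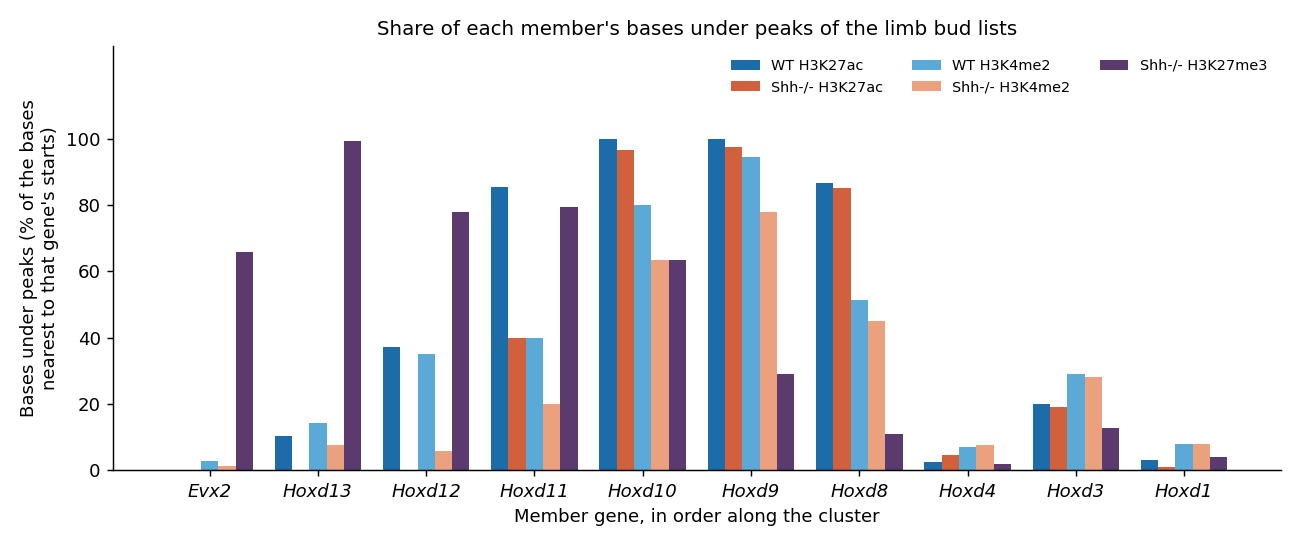
Percent of the bases nearest to each member's transcript starts that lay under peaks (y axis), for the 10 members in order (x axis), with 1 bar per limb list and no error bars because each list pools both replicates. Acetylation is highest at Hoxd10 and Hoxd9, with 100% in WT, H3K27me3 is highest at Hoxd13 with 99.2%, and Hoxd13 and Hoxd12 have no Shh-/- acetylation.

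Counted by peaks, less of the H3K4me2 of WT was unshared than of the acetylation. In WT 21 of 61 peaks (34.4%, 23.7 to 47.0) had no Shh-/- overlap, beside 25.7% over the whole list, and in Shh-/- 13 of 59 (22.0%, 13.4 to 34.1) had none in WT, beside 22.5%. Both intervals include the share of the whole list. By bases, 39.9% of WT H3K4me2 was unshared, beside 28.7% over the whole list, and 23.3% of Shh-/- H3K4me2, beside 20.7%. The order of the marks in WT was therefore opposite by bases, where the unshared share of acetylation was 27.5% and below that of its whole list. Peaks with an FDR of 0.05 or more numbered 11 of 61 in WT and 8 of 59 in Shh-/-, and 0 in both acetylation lists.

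H3K27me3 in Shh-/- was widest where acetylation was narrow or absent, at the Evx2 end. It covered 48100 bases of the window (34.4%), and 4 peaks of 5 kb or more made up 68.9% of these. From the Evx2 end they were chr2:74647250-74652949 past the end of Evx2 (5700 bp, log2 ratio 4.65, rank 391), chr2:74653300-74661949 over Evx2 (8650 bp, 4.95, rank 110), chr2:74663700-74671599 over Hoxd13 (7900 bp, 4.35, rank 598) and chr2:74673400-74684299 over Hoxd12 and the first part of Hoxd11 (10900 bp, 5.01, rank 86). The last of them was the best-ranked and widest of the window. Over the remaining 95700 bp it covered 14.2%, in 37 peaks of 100 to 1300 bp, of which 16 had an FDR of 0.05 or more. Per gene the cover went from 99.2% at Hoxd13 to 63.3% at Hoxd10, 29.2% at Hoxd9 and 10.9% at Hoxd8.

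Within the acetylated core, H3K27me3 was present in short peaks. The strongest lay on the first exon of Hoxd10 (chr2:74691900-74693199, log2 ratio 4.07, rank 1068), where Shh-/- acetylation (6.10) and H3K4me2 (4.11, rank 4131) were also called. Past the core the leading ones were a pair over exonic sequence near the end of Hoxd3 (2.97 and 3.12) and 1 in Hoxd1 (chr2:74763150-74763949, 3.38, rank 2862). In a whole bud, 2 marks under the same bases may be on the same chromatin or in different cells, which cannot be told apart.

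H3K27me3 peaks met acetylation peaks in the window far more often than over the whole lists, and met H3K4me2 peaks more often. Of the 45 H3K27me3 peaks, 26 (57.8%, 43.3 to 71.0) overlapped Shh-/- acetylation, beside 1.91% over the whole list, and 29 (64.4%, 49.8 to 76.8) overlapped WT acetylation, beside 2.11%. With Shh-/- H3K4me2 it was 21 (46.7%, 32.9 to 60.9), beside 20.1%. Seen from the acetylation lists, 14 of 25 Shh-/- peaks (56.0%) and 22 of 33 WT peaks (66.7%) overlapped H3K27me3, beside 0.701% and 0.725%. By bases, 21.2% of the H3K27me3 of the window lay under Shh-/- acetylation, beside 1.14% over the whole list, while 18.0% lay under Shh-/- H3K4me2, close to the 16.4% of the whole list. These differences rest on peaks of one locus, where wide peaks touch many others. Of the 45 H3K27me3 peaks, 17 had an FDR of 0.05 or more, and in the whole list 47.2% had an FDR under 0.05. With an FDR under 0.05 in every list, 8550 of the 10200 bases under both H3K27me3 and Shh-/- acetylation remained.

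Over the window, acetylated bases in the WT list and not the Shh-/- list lay under Shh-/- H3K27me3 more often than shared ones. Of 10400 such bases 6350 (61.1%) were under H3K27me3, against 9850 of 27450 shared bases (35.9%), and over the whole lists these shares were 0.567% and 0.665%. The excess lay in the stretch from the first WT to the first Shh-/- acetylated base, which by its choice holds no shared bases. There 5200 of 5850 WT bases (88.9%) were under H3K27me3, which covered 88.5% of that stretch in any case. After it, where all shared bases lie, the order was the reverse. Of 4550 WT-only bases there 25.3% were under H3K27me3, below the 35.9% of the shared bases. Counted by peaks, 16 of 23 WT-only peaks (69.6%) and 6 of 10 shared peaks (60.0%) overlapped H3K27me3. In the HoxA window 25.0% of 8800 WT-only acetylated bases were under H3K27me3, in HoxB 8.20% of 3050 and in HoxC 12.0% of 1250.

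Promoters, taken as 2 kb before to 1 kb after any annotated start, gave the same order in simple counts. Of the 10 members, 8 had WT acetylation (beside 43.8% of 21938 protein-coding genes) and 6 had Shh-/- acetylation (40.9%). Evx2 and Hoxd1 lacked it in both. Hoxd13 and Hoxd12 had WT acetylation and no Shh-/- acetylation, 2 of 10 beside 4.97% of all genes, and 0 of 10 had the reverse, beside 2.07%. H3K4me2 marked 9 of 10 in WT (64.0% of all genes) and the same 9 in Shh-/- (63.5%), all but Evx2. Equal counts do not mean equal cover: at Hoxd12 it lay on 1064 promoter bases in WT and on 137 in Shh-/-. H3K27me3 marked 10 of 10, beside 13.3%. Both H3K27me3 and H3K4me2 were at 9 of 10 promoters in Shh-/- (11.5%), and both H3K27me3 and acetylation at 6 of 10 (2.04%). Since all starts of a gene count together, 2 marks at a promoter need not share bases. At Hoxd4 no Shh-/- acetylation peak overlapped H3K27me3.

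The other Hox genes and Evx1, 31 in all, were read by the same rule. Acetylation was at 20 promoters in WT and 20 in Shh-/-, H3K4me2 at 25 and 26, and H3K27me3 at 24. In Shh-/- both H3K27me3 and H3K4me2 were at 19 of these promoters: 9 of 12 in HoxA with Evx1, 9 of 10 in HoxB and 1 of 9 in HoxC. Both H3K27me3 and acetylation were at 13 of the 31 (41.9%). The shares in HoxA (7 of 12) and HoxB (6 of 10) were close to that of the HoxD members, and HoxC had 0 of 9. Evx1, the relative of Evx2 at the end of HoxA, was the 1 gene with WT and no Shh-/- acetylation, and Hoxb8 was the 1 gene with the reverse. Hoxa13, the counterpart of Hoxd13, had no promoter acetylation in either genotype, H3K4me2 in both, and H3K27me3.

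**Figure D5:**
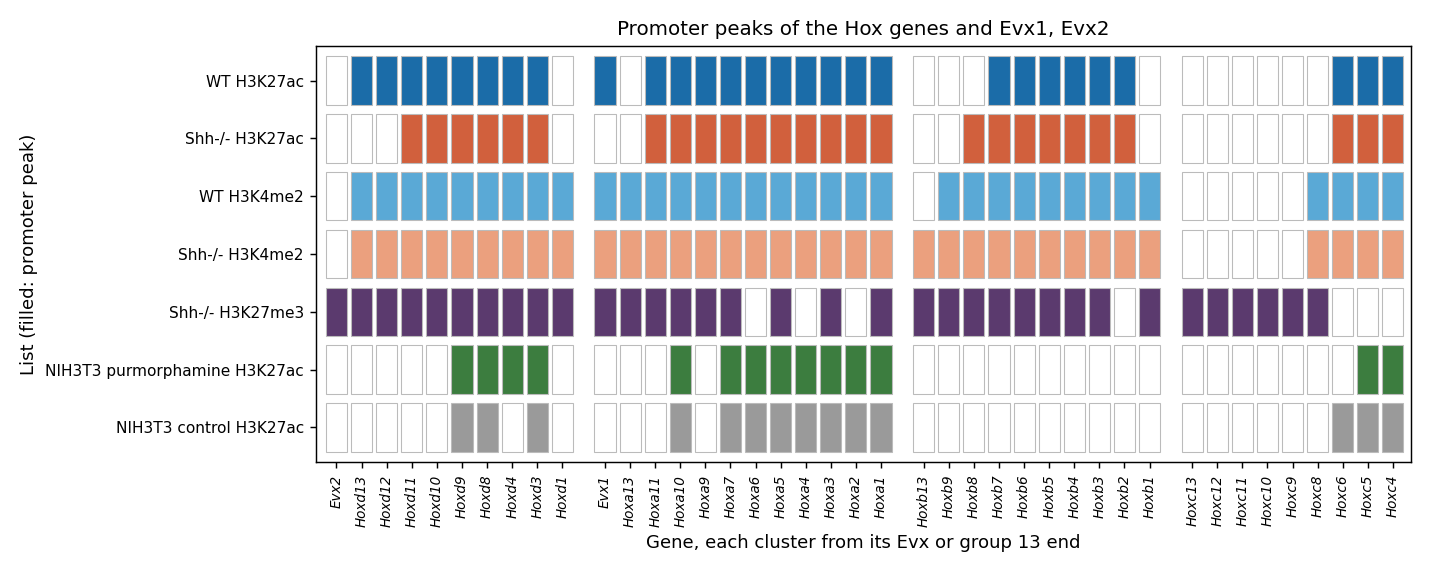
Promoter peaks (filled cells) of the Hox genes, Evx1 and Evx2 on the x axis, each cluster from its Evx or group 13 end, in the 7 lists on the y axis, with a promoter spanning 2 kb before to 1 kb after any annotated start. Hoxd13 and Hoxd12 are filled for WT and empty for Shh-/- acetylation, and all 10 members are filled for H3K27me3.

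NIH3T3 cells were used to ask whether switching on HH signaling changed acetylation in a fibroblast. Acetylation there was confined, apart from single peaks of 150 bp near Hoxd12 with purmorphamine and in Hoxd10 with DMSO, to Hoxd9, Hoxd8, Hoxd4 and Hoxd3. Promoters of 4 members were marked with purmorphamine (beside 53.1% of all genes) and of 3 with DMSO (53.0%), the extra one being Hoxd4. Hoxd13 and Evx2 had no peak in either list. Peaks covered 14900 bases with purmorphamine and 14450 with DMSO, of which 12850 were the same bases.

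The leading NIH3T3 peaks were shared, and their order differed by gene. At Hoxd9 the log2 ratio was 5.39 with purmorphamine (2400 bp, rank 978) and 4.77 with DMSO (2000 bp, rank 2569). At Hoxd3 purmorphamine gave 1 peak of 6600 bp (5.12, rank 935), and DMSO gave 2, of 3800 bp (5.62, rank 675) and 2950 bp (4.39, rank 5213). At Hoxd8 purmorphamine gave 1 peak of 3900 bp (4.76, rank 3552), where the better of the DMSO peaks had 4.50 (rank 3995). These differences were not set against an error here, since the lists pool the replicates. Unshared peaks were 5 of 11 with purmorphamine (45.5%, 21.3 to 72.0), beside 36.5%, and 3 of 11 with DMSO (27.3%, 9.75 to 56.6), beside 41.1%, and all of them were 100 to 450 bp wide. By the labels, the limb and NIH3T3 antibodies against H3K27ac differed, so levels were not compared between them. Of the bases acetylated in both NIH3T3 lists, 73.9% were also acetylated in WT limb buds.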

How the data were processed

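The data were peak lists of 7 ChIP-seq conditions, 1 per condition, called by the authors from both replicates against input. By the study's methods and the submitters' processing notes, reads were aligned to mm10 with Bowtie2 2.2.5 and peaks called with CisGenome 2.1.0. The deposited columns were a rank, start, end and length, a false discovery rate (FDR, a q-value), a score (the authors' largest statistic in the peak, which sets the rank), the maximum log2 ratio between ChIP and input, and a −log10 Poisson p-value at its most extreme in the peak, all computed by the authors. Each list held scores of at least 3.00 and −log10 values of at least 5.00, and FDR limits differed between lists. No read counts were used. The lists do not give the depth per library, for which the study states only a minimum. Limb H3K27ac, H3K4me2 and H3K27me3 and NIH3T3 H3K27ac used separate antibodies, so ratios were compared only within a mark and system. The labels name LIF in the NIH3T3 medium and the methods name low serum, and which applied was not settled.

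Only peaks on the autosomes and the sex chromosomes were kept. Coordinates are 1-based, and ends lay within GRCm38. Transcript starts and gene features came from GENCODE M21 and sequences from RefSeq. A peak overlapping the other list by 1 bp was shared. Genes' bases are those nearest to their starts, whole peaks were given by their centres, and sums of bases are unions of peaks. Scripts ran in Python 3.11.15 with pandas 2.3.3, numpy 2.4.6 and scipy 1.17.1 and were tested on simulated data.

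The 10 members and the gene lists were chosen with earlier results of these data known. A further list of genes is not reported here. Peaks named by rule were the 3 best-ranked of the window per list and those unshared within the best 10% of a list. Other single peaks were picked after their values were seen to describe a member. Alternatives were an overlap of 50% of the peak, sharing across a gap of at most 500 bp, an FDR under 0.05, the better-ranked 50% of every list, merging within 1 kb, bases in place of peaks, and other ways to assign peaks. Lists of equal length, all alternatives of the 13950 bp distance and of the H3K27me3 shares of acetylated bases, and assignment base by base were added after seeing the data.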

Additional observations from a re-analysis of the deposited data

How the results depend on the processing

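No paired analysis was possible because each condition has 1 list of pooled replicates, and for the same reason no replicate could be left out. Across 16 results, 54 of 67 alternative values stayed close to those reported and 13 moved. Counted in bases, the unshared share was 27.5% for WT acetylation, 7.26% for Shh-/- acetylation and 13.8% for purmorphamine. In the better-ranked 50% of each list it was 7.69% for Shh-/- acetylation, 0% of 4 peaks for purmorphamine and 0% of 6 for DMSO, and WT H3K4me2 covered 22400 bases. The WT H3K4me2 share was 47.5% when 50% of a peak had to overlap and 21.3% with a gap of up to 500 bp, which gave 9.09% for DMSO. With peaks merged within 1 kb, H3K27me3 shared 18300 bases with acetylation and 18000 with H3K4me2, and 56.8% of shared acetylated bases were under H3K27me3. The cause of these shifts was not tested.

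The WT-only acetylation share was 54.5% to 72.7% under the alternatives by peaks, with 66.7% (20 of 30) for lists of equal length. The 48.5% of the whole WT list was not recomputed under these alternatives. Whether the share of the window stayed above it there was not tested. Under the alternatives the distance between the first acetylated bases was 13200 to 13950 bp. Of 70 values per gene and list, 0 moved by over 1.5 times with peaks assigned by their nearest edge, 5 with each base assigned, 17 in the better-ranked 50% and 23 with each gene's 5′ end as its start, among them all 7 lists of Hoxd4 and of Hoxd3, which changed places as the gene with more bases. A peak wider than a gene is given whole to 1 gene: WT acetylation was 19650 bases for Hoxd10 and 0 for Hoxd9 by centres, and 7702 and 6346 by bases, the basis of the percentages in the text. Weak peaks near the authors' limits are the least certain, the 4 WT peaks of Hoxd13 among them.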
